A study of Mus musculus with 2 samples.

Results

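Mgp-type fibroblasts with high Ptgs2 were the fibroblasts of mouse small-intestinal co-cultures in which the summed UMIs (unique molecular identifiers, each standing for a captured mRNA molecule) of Mgp, Lox and Mfap5 were at least those of Grem1, Rspo3, Ccl7, Hsd11b1 and Cxcl5, and in which Ptgs2 made up at least 0.05% of the UMIs of the cell. There were 171 such cells among 2507 barcodes, 84 of 908 in the Ptger4-ON library and 87 of 1599 in the Ptger4-OFF library. They were chosen from measured values, so their levels of Ptgs2 and of the 8 other genes named above describe the choice. Fibroblasts and epithelial cells were told apart by Col1a1, Col1a2, Col3a1, Sparc and Dcn against Epcam, Krt8, Krt18, Krt19 and Cldn7, and the levels of these genes describe the choice too. The cells they are set against were the 212 Mgp-type fibroblasts under the same Ptgs2 level, called low-Ptgs2 cells here (78 in Ptger4-ON and 134 in Ptger4-OFF).

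Both libraries came from co-cultures of intestinal fibroblasts and crypts of C57BL6 mice aged 10 weeks, grown in Organoid Growth Media, released with trypsin and EDTA and profiled by Drop-seq, in which single cells are captured in droplets with barcoded beads. The Ptger4-ON cultures received the DMSO vehicle and grew as spheroids. The Ptger4-OFF cultures received ONO-AE3-208, an antagonist of the prostaglandin E2 receptor EP4 (gene Ptger4), at 10 µM every second day and grew as budding organoids. ON and OFF thus name a drug treatment and not a genotype, and both arms held the same kinds of cultured cells. Each library was a pool of 6 cultures that cannot be told apart, so each condition is 1 sample, no difference between conditions could be tested, and every interval below covers counting error only.

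Ptgs2 encodes cyclooxygenase-2, the inducible enzyme that turns arachidonic acid into prostaglandin H2, from which terminal synthases make prostaglandin E2 and other prostanoids. Prostaglandin E2 acts on neighbouring cells through the EP receptors. EP4 couples to cyclic AMP and protein kinase A. In the gut, fibroblasts beneath the epithelium are a known source of prostaglandin E2. Mgp encodes matrix Gla protein, an inhibitor of calcification, Lox encodes lysyl oxidase, which cross-links collagen and elastin, and Mfap5 encodes a protein of elastic microfibrils. Grem1 and Rspo3, which are among the genes used to set the other fibroblasts of these cultures apart, encode a BMP antagonist and a Wnt agonist. The division is one of degree: a Grem1 UMI was seen in 49 of 84 members of Ptger4-ON and 56 of 87 of Ptger4-OFF.

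The start of the Ptgs2 gene is shown because Ptgs2 defines the cells, and those of Cyr61 and Errfi1 because both genes were higher with Ptgs2 and hold motifs of the same search. Ptgs2 lies on chromosome 1 at chr1:150100031-150108227 on the plus strand of mm10. The sequences are RefSeq's for GRCm38.p6, read 5′ to 3′ on the strand of the gene, with matched motifs in capitals.
Ptgs2, the 250 bases before the start, chr1:150099781-150100030, plus strand: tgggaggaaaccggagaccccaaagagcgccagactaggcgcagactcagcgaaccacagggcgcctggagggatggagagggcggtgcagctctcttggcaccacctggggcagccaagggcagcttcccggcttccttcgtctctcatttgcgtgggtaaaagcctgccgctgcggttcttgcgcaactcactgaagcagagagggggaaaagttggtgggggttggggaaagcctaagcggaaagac
Ptgs2, the next 30 bases, chr1:150100031-150100060, plus strand: agagtcaccactACGTCACGTGgagtccgc
Cyr61 (listed there as Ccn1), the 250 bases before the start, chr3:145649986-145650235, minus strand: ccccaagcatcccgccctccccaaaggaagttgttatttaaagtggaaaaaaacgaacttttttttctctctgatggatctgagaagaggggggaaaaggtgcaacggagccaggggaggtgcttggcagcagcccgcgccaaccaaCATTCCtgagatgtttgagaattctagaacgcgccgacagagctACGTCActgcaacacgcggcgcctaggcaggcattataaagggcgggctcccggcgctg
Errfi1, the 250 bases before its second listed start, chr4:150854820-150855069, plus strand: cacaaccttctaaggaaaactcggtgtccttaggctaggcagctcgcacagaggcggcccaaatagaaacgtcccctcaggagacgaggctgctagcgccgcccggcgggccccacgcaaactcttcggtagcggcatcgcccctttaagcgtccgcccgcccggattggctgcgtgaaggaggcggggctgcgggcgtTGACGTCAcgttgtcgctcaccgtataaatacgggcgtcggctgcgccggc

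The motifs searched on both strands were the core of the cyclic AMP response element (TGACGT), the E-box (CACGTG), the AP-1 site (TGANTCA), the TEAD site (GGAATG) and the CArG box. In Ptgs2 the cyclic AMP core and the E-box overlap just after the annotated start, and the 250 bases before that start hold none of the 5. Where transcription begins in these cells was not tested. Cyr61 held a TEAD site and a cyclic AMP core, and the second listed start of Errfi1 held the core on both strands in 1 overlapping run. The first listed start of Errfi1 held a TEAD site and no core. Among other searched genes higher with Ptgs2, Rgs16 and Ier3 held none of the 5 and Tnfsf15 only a TEAD site. Windows of 300 bases around all 32851 listed mouse starts held the cyclic AMP core in 7.51%, the E-box in 7.15%, the AP-1 site in 7.81%, the TEAD site in 14.7% and the CArG box in 1.63%. These matches are letters in a window and not shown sites of binding. Of the 15 genes described below as higher with Ptgs2, only 9 had a listed window. The cyclic AMP core was in 3 of these 9, the E-box in 1, a TEAD site in 2 and the AP-1 site and CArG box in none. They are too few to set against all starts.

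The members carried 676760 UMIs in Ptger4-ON and 530079 in Ptger4-OFF, with a median of 5541.5 and 5166 UMIs per cell. The low-Ptgs2 cells were a little deeper, with medians of 6194 and 5584.5. The median mitochondrial share of the members was 1.11% and 1.24%. The label of fibroblast was checked with the 9 fibroblast markers that the choice did not use, among them Lum, Pdgfra, Pdgfrb, Thy1 and Bgn. They summed to 4371 CPM (UMIs in each 1000000 of the class) in the members of Ptger4-ON and 4699 in Ptger4-OFF, against 20.4 and 16.5 in epithelial cells. Every member had at least 1 UMI of them. Spp1, the gene of osteopontin, was a listed marker that the choice did not use, and it was uneven: 49 of 84 members had a Spp1 UMI in Ptger4-ON and 35 of 87 in Ptger4-OFF.

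Apart from smooth muscle genes, markers of other cell types were low in the members. The 5 epithelial markers that the choice did not use (Krt20, Cldn3, Cdh1, Vil1 and Lgals4) summed to 47.3 CPM in Ptger4-ON and 143 in Ptger4-OFF, against 4936 and 4980 in the epithelial cells. All 10 epithelial markers, of which the choice used 5, summed to 194 and 366 CPM in the members and to 410 and 215 in low-Ptgs2 cells. The smooth muscle list summed to 303 and 306 CPM and the mesothelial list to 57.6 and 47.2, with 3 of its 6 genes at 0. The list of interstitial cells of Cajal summed to 48.8 and 77.3 CPM, with 2 of 4 genes at 0. The pericyte list summed to 20.7 and 1.89 CPM, the endothelial list to 13.3 and 9.43, the leukocyte list to 8.87 and 5.66 and the glial list to 1.48 and 0, and the erythroid gene in the files was at 0. In 1 member of Ptger4-ON and 2 of Ptger4-OFF the epithelial markers exceeded 10% of the fibroblast markers. The libraries shared 1 barcode, which belonged to no member.

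Ptgs2 itself ranged widely among the members. In Ptger4-ON a member held between 2 and 53 Ptgs2 UMIs, with a median of 9, and Ptgs2 made up a median of 0.129% and at most 0.552% of the UMIs of a cell. In Ptger4-OFF a member held between 2 and 35, with a median of 5, and the median and highest shares were 0.101% and 0.443%. Summed over the members, Ptgs2 stood at 1382 CPM in Ptger4-ON and 1230 in Ptger4-OFF, against 164 and 172 in low-Ptgs2 cells. Grem1-type fibroblasts were between them at 645 and 726 CPM, and epithelial cells were at 14.7 and 1.65 CPM.

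The level that divided the cells fell in a continuous range. The smallest share inside was 0.0505% in Ptger4-ON and 0.0514% in Ptger4-OFF, and the largest outside was 0.0494% and 0.04996%. Between 0.05% and 0.06% lay 6 and 12 members, and between 0.04% and 0.05% lay 11 and 17 low-Ptgs2 cells. After every cell was thinned to 2000 UMIs, a Ptgs2 UMI was still seen in 86.9% of members in Ptger4-ON (95% Clopper-Pearson interval 77.8 to 93.3) and in 90.8% in Ptger4-OFF (82.7 to 95.9). In the low-Ptgs2 cells the shares were 35.9% and 29.1%. Epithelial cells, whose unthinned median depths were 7092 and 5089 UMIs, gave 1.81% and 0.106%. Before thinning, 96.1% of the epithelial cells of Ptger4-ON had no Ptgs2 UMI, and the highest cell had 19. How much of any of these shares came from free RNA was not tested.

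**Figure D1:**
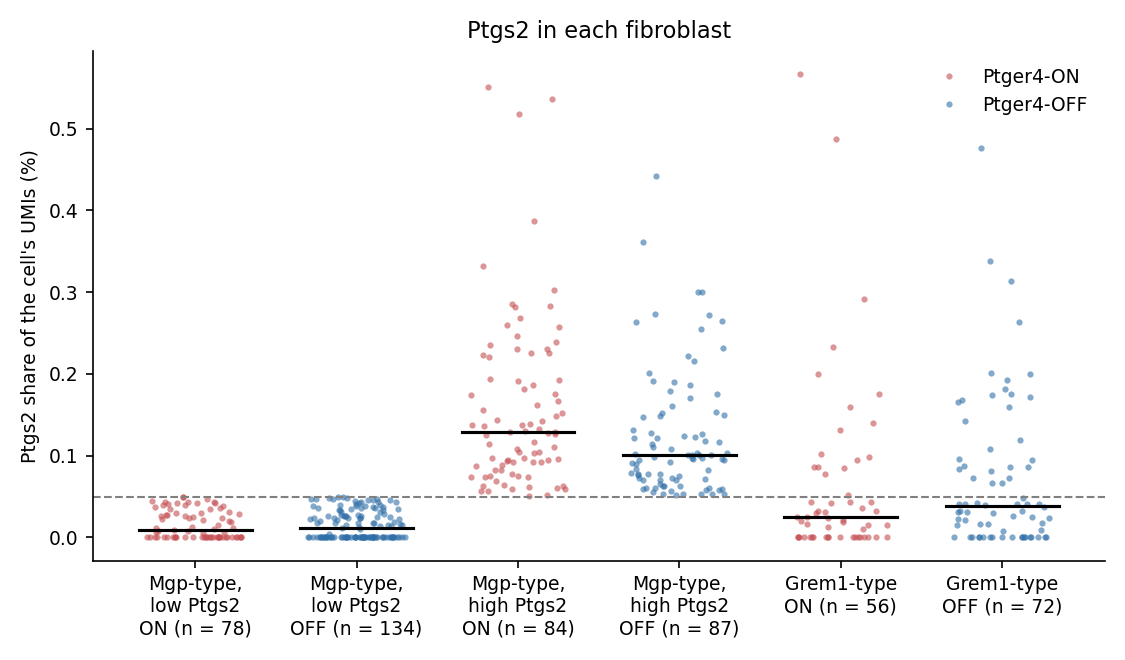
Each point is a fibroblast, placed by the share of its UMIs that are Ptgs2 (y axis, percent) in 6 classes (x axis, with the number of cells), red for Ptger4-ON and blue for Ptger4-OFF. Black lines are medians and the dashed line is the 0.05% level that divided the Mgp-type cells, whose points run through it without a gap.

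The members made up 51.9% of the 162 Mgp-type fibroblasts of Ptger4-ON (43.9 to 59.8) and 39.4% of the 221 of Ptger4-OFF (32.9 to 46.1). The intervals overlap, and they do not hold the spread between cultures. At a level of 0.1% the shares were 32.7% and 19.9%, at 0.02% they were 71.0% and 63.3%, and with every cell thinned to 2000 UMIs before the choice, where a single UMI reaches the level, they were 61.9% and 53.4%. The share was the higher in Ptger4-ON in each of these. Among Grem1-type fibroblasts the order was the other way, with 17 of 56 cells (30.4%, 18.8 to 44.1) at the same Ptgs2 level in Ptger4-ON and 28 of 72 (38.9%, 27.6 to 51.1) in Ptger4-OFF, and the difference between the 2 classes was not tested. Only 2 of 441 epithelial cells (0.454%) reached that level in Ptger4-ON and 0 of 947 in Ptger4-OFF, where the upper limit was 0.389%.

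The genes that went with Ptgs2 were described by the ratio of summed CPM in members over low-Ptgs2 cells of the same library. Of 4084 genes with at least 50 UMIs in each library, 26 (0.637%) were at least 1.5-fold higher in the members in both libraries and 30 (0.735%) were at least 1.5-fold lower in both. Within a library the counts were larger: 191 higher (4.68%) and 217 lower (5.31%) in Ptger4-ON, and 113 higher (2.77%) and 207 lower (5.07%) in Ptger4-OFF. Ptgs2 and the genes of the choice are not counted. The cells were divided by a measured gene of the same counts, so these ratios describe what accompanied Ptgs2 and carry no test.

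Matricellular proteins that are known targets of YAP and TEAD, Ctgf and Cyr61, were higher in the members. Ctgf was at 526 against 202 CPM in Ptger4-ON (ratio 2.6, 95% counting interval 2.10 to 3.23) and at 206 against 111 in Ptger4-OFF (1.85, 1.38 to 2.47). Cyr61 was at 894 against 441 CPM (2.03, 1.75 to 2.35) and at 821 against 555 (1.48, 1.29 to 1.69), just under the 1.5-fold limit in the second library. Thbs1, the gene of thrombospondin-1, was at 1327 against 508 CPM in Ptger4-ON (2.61, 2.29 to 2.99) but at 841 against 625 in Ptger4-OFF (1.35, 1.18 to 1.53). F3, the gene of tissue factor, was at 154 against 61.1 CPM (2.52) and at 96.2 against 54.4 (1.77). It was not among the 15 named higher genes, as its CPM in members was under 0.5 of the epithelial CPM in at least 1 library. When the Mgp-type fibroblasts were divided into 4 classes, with no Ptgs2 UMI, with a Ptgs2 share above 0 and under 0.05%, from 0.05% to under 0.1%, and at 0.1% and above, Ctgf was highest in the top class of both libraries. From the lowest class to the highest it read 117, 244, 246 and 710 CPM in Ptger4-ON and 75.6, 134, 115 and 294 in Ptger4-OFF. Cyr61 read 424, 450, 637 and 1063 CPM in Ptger4-ON and 482, 603, 746 and 893 in Ptger4-OFF, higher in each class than in the one before.

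**Figure D2:**
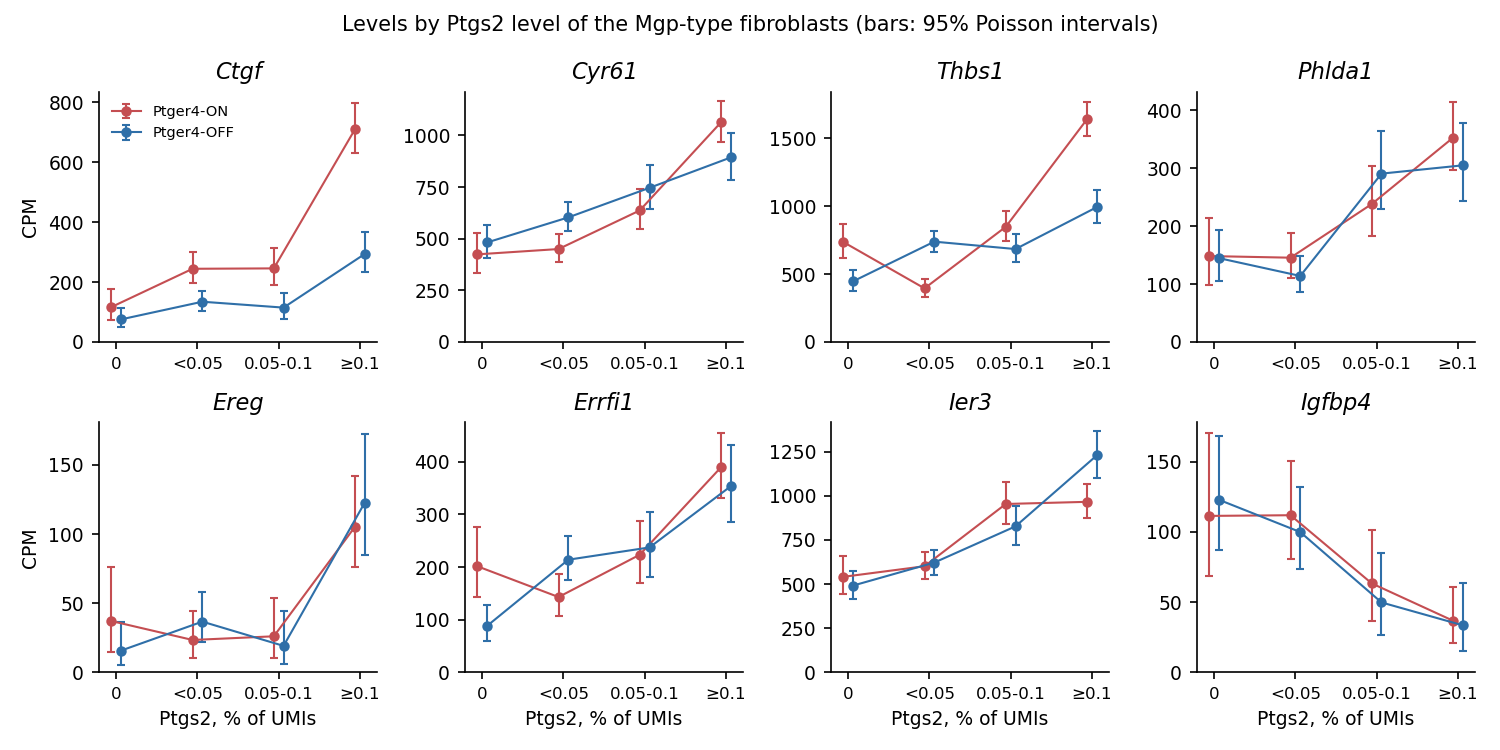
Level of 8 genes in CPM (y axes) in Mgp-type fibroblasts of 4 Ptgs2 classes, by the percent of UMIs that are Ptgs2 (x axes), in red for Ptger4-ON and blue for Ptger4-OFF, with 95% Poisson intervals as bars. Ctgf reaches 710 and 294 CPM in the top class while Igfbp4 reads 36.7 and 33.5.

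Of 9 measured growth factors, 3 were above and 2 below 1 in both libraries, with median log2 ratios of 0.28 and −0.12. Ereg, which encodes the EGF receptor ligand epiregulin, was at 73.9 against 27.9 CPM in Ptger4-ON (2.65, 1.48 to 4.98) and at 71.7 against 28.4 in Ptger4-OFF (2.52, 1.46 to 4.43). It was high only in the cells with the most Ptgs2, at 105 and 123 CPM, and at 15.7 to 37.1 CPM in the 3 other classes. Some named genes outside that list are known for parts in growth factor signalling. Errfi1, a feedback inhibitor of the EGF receptor, was at 324 against 162 CPM (1.99) and at 296 against 165 (1.80). Phlda1, a pleckstrin-homology-like protein induced by growth factors, was at 307 against 147 CPM (2.10, 1.62 to 2.74) and at 298 against 126 (2.36, 1.83 to 3.06). Dusp5, a phosphatase of ERK, was higher mainly in Ptger4-ON, at 76.8 against 14 CPM there and at 56.6 against 38.3 in Ptger4-OFF.

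Among secreted immune signals, Cxcl1, a chemokine for neutrophils, was at 130 against 76.8 CPM in Ptger4-ON (1.69, 1.17 to 2.49) and at 292 against 174 in Ptger4-OFF (1.68, 1.33 to 2.12). It did not climb evenly: in Ptger4-ON it read 84.8, 72.8, 29.8 and 196 CPM over the 4 Ptgs2 classes, and in Ptger4-OFF 264, 116, 214 and 368. With the Ptgs2 level at 0.02% its log2 ratio in Ptger4-OFF was −0.30, the opposite direction. Tnfsf15, a TNF-family ligand, had the largest ratios, 3.47 (60.6 against 17.4 CPM) and 3.19 (86.8 against 27.2), but 47.8% of its Ptger4-OFF UMIs came from 1 member. Without the highest cells its ratios were 6.45 and 2.28, and with cells thinned before the choice 2.51 and 1.03. Lif, an IL-6 family cytokine, was at 177 against 61.1 CPM in Ptger4-ON (2.90, 1.98 to 4.36) and at 81.1 against 54.4 in Ptger4-OFF (1.49, 0.956 to 2.32).

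Also above 1.5-fold in both libraries were Rgs16, a GTPase activator for G-protein alpha subunits (3.04 and 2.52), Ier3, an immediate early gene (1.65 and 1.81, at 960 and 1030 CPM in members), Ltbp2, a latent TGF-beta binding protein family member of microfibrils (1.74 and 2.22), Hk1, a hexokinase (1.76 and 1.95), Pvr, an adhesion receptor (1.74 and 2.03), Dhx40, an RNA helicase-like gene (1.86 and 1.74) and Arl8a, a small GTPase of lysosomes (1.66 and 1.91). The intervals of Ltbp2 (0.981 to 3.19) and Arl8a (0.969 to 2.91) in Ptger4-ON reached below 1. With cells thinned before the choice, the 15 named higher genes stayed above 1 in both libraries, from 1.03 (Tnfsf15 in Ptger4-OFF) to 4.85 (Ereg in Ptger4-OFF). Rgs16 dropped to 1.26 in Ptger4-ON in that setting.

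**Figure D3:**
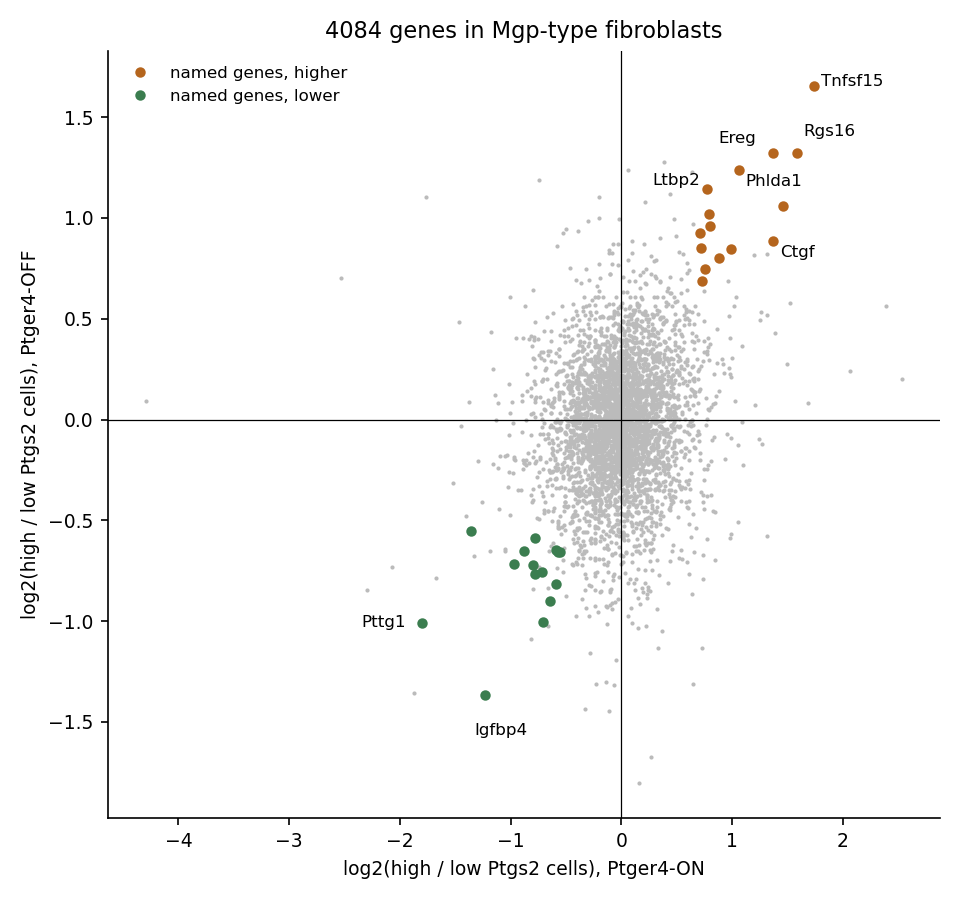
Each point is a gene, placed by its log2 ratio of members over low-Ptgs2 cells in Ptger4-ON (x axis) and in Ptger4-OFF (y axis). The 15 higher genes are orange and the 15 lower genes green. Tnfsf15, Rgs16 and Ereg lie at the upper right and Igfbp4 and Pttg1 at the lower left of a cloud of 4084 genes centred near 0.

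Fewer counts stood behind the named genes that were lower with Ptgs2. Igfbp4, which encodes a binding protein of insulin-like growth factors, had low ratios in both libraries: 47.3 against 112 CPM in Ptger4-ON (ratio 0.423, 0.268 to 0.657) and 41.5 against 109 in Ptger4-OFF (0.381, 0.227 to 0.614). Across the 4 Ptgs2 classes it read 111, 112, 63.3 and 36.7 CPM in Ptger4-ON and 123, 99.8, 49.7 and 33.5 in Ptger4-OFF. Serpine2, the protease nexin inhibitor, was at 284 against 443 CPM (0.640, 0.528 to 0.775) and at 208 against 388 (0.534, 0.426 to 0.666). Id3, a BMP-responsive inhibitor of DNA binding, was at 48.8 against 126 CPM (0.388) and at 75.5 against 111 (0.678). At a Ptgs2 level of 0.02% the log2 ratios in Ptger4-ON turned to 0.038 for Id3 and 0.029 for Serpine2. With cells thinned before the choice the ratio of Serpine2 in Ptger4-ON was 0.928. Pttg1, the securin of mitosis, was at 26.6 against 94.2 CPM (0.282) and at 24.5 against 50.7 (0.484).

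The other 11 lower genes were Lonp2, Metap1, Rrp36, Serf1, Chodl, Rab9, Pla2g16, Acap2, Pi4k2a, Slc35b1 and Nudt21, at 30.2 to 68.0 CPM in the members, with ratios of 0.489 to 0.678. In at least 1 library the interval of 9 of them reached 1 or above. Chodl rested on few cells: without the highest cell of each class its ratios were 1.19 and 0.433. When cells were thinned before the choice, the ratio of Chodl turned to 23.3 in Ptger4-ON and 3.03 in Ptger4-OFF and that of Acap2 to 1.02 in Ptger4-ON.

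Groups of genes were described by the median log2 ratio of their measured members and by how many were on the same side of 1 in both libraries. Among all 4084 genes the medians were −0.02 and −0.01, with 25.2% above 1 in both libraries and 29.7% below 1 in both. Of 18 immediate early and AP-1 genes, 13 were above 1 in both and none below in both, with medians of 0.42 and 0.30. They included Dusp1, Egr1, Fos, Fosl1, Jun, Klf4, Klf6 and Myc, and Ier3 alone passed 1.5-fold in both. With cells thinned before the choice the log2 ratio of Fos in Ptger4-ON turned to −0.41. Of 10 genes of the NF-kB list, 8 were above 1 in both and Nfkb2 was below, with medians of 0.41 and 0.34. Nfkbiz, an atypical inhibitor of NF-kB, was at 266 against 188 CPM in Ptger4-ON (1.41) and at 289 against 207 in Ptger4-OFF (1.40). The list of dissociation and heat-shock genes, which shares stress-responsive genes with the immediate early response, had 7 of 13 above and 3 below in both libraries and medians of 0.22 and 0.12, and its part in the result was not tested.

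Of 13 targets of YAP and TEAD, 8 were above 1 and 2 below 1 in both libraries, and Ctgf, F3 and Crim1 passed 1.5-fold in both. Of 16 contractile and cytoskeletal genes, 12 were above 1 in both, none was below in both and none passed 1.5-fold in both. Actn1, alpha-actinin-1, was at 526 against 366 CPM in Ptger4-ON (1.44) and at 411 against 320 in Ptger4-OFF (1.28), and Cnn2, calponin-2, at 519 against 391 (1.33) and 690 against 491 (1.41). Of 11 genes of the TGF-beta and activin list, 5 were above 1 and 1 below in both, and 3 passed 1.5-fold in both, Ctgf and Ltbp2 among them. Ctgf stands in more than 1 list, so these lists are not separate from each other. Of 20 genes of glycolysis and hypoxia, 13 were above 1 in both and none below in both. Adm, the gene of adrenomedullin, had the highest ratio of them in Ptger4-ON, at 297 against 119 CPM (2.50), and read 208 against 145 (1.43) in Ptger4-OFF. With cells thinned before the choice the ratio of Adm was 1.23 in Ptger4-ON and 1.38 in Ptger4-OFF, and at a Ptgs2 level of 0.1% its log2 ratio in Ptger4-ON was 0.58 against 1.32.

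Matrix genes did not go one way with Ptgs2. Of 15 collagens, 3 were above and 7 below 1 in both libraries, and the medians were −0.01 and −0.13. Col12a1, a collagen that associates with fibrils, was at 136 against 94.2 CPM (1.44) and at 130 against 73.0 (1.78). Of 14 collagen-processing genes, 7 were above and 2 below, among them Loxl2, a lysyl oxidase homologue, at 504 against 359 CPM (1.40) and at 468 against 349 (1.34). Fn1, the gene of fibronectin, was at 1231 against 930 CPM (1.32, 1.19 to 1.48) and at 1339 against 907 (1.48, 1.33 to 1.64). Mgp, a gene of the choice, split by library, at 3899 CPM in members and 3301 in low-Ptgs2 cells of Ptger4-ON but at 2964 and 4846 in Ptger4-OFF. No Mgp UMI was seen in 18 of 84 members of Ptger4-ON and 27 of 87 of Ptger4-OFF. Over the 4 Ptgs2 classes Mgp read 2995, 3451, 4870 and 3261 CPM in Ptger4-ON and 5623, 4343, 3643 and 2303 in Ptger4-OFF. Lox, also a gene of the choice, was seen in 83 and 85 members. It read 3096, 2993, 3835 and 4613 CPM in Ptger4-ON and 2289, 3129, 3394 and 3635 in Ptger4-OFF.

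Among lists with at least 5 measured genes, that of G2 and mitosis was the furthest below 1 in both libraries. Of 9 measured genes, 8 were lower in the members in both libraries and 5 by at least 1.5-fold (Ccnb2, Cenpe, Mki67, Top2a and Ube2c), with medians of −1.33 and −0.63. Summed over the list of 20, the members read 482 CPM in Ptger4-ON and 551 in Ptger4-OFF, against 1319 and 806 in low-Ptgs2 cells and 4094 and 4078 in epithelial cells. The epithelial markers of the members were below those of low-Ptgs2 cells in Ptger4-ON, 194 against 410 CPM, and above them in Ptger4-OFF, 366 against 215. Mixed barcodes, in which the epithelial markers of the choice exceeded 10% of the fibroblast ones, numbered 1 member and 3 low-Ptgs2 cells in Ptger4-ON and 2 and 1 in Ptger4-OFF. Without them the G2 and mitosis list summed to 473 against 1120 CPM and to 494 against 794, with medians of −1.04 and −0.81 and 9 of 9 genes lower in both libraries. Few cells carried these counts, and 1 member held 50.9% of those in Ptger4-ON. At 2000 UMIs per cell, at least 3 UMIs of the list were found in 6 of 84 members and 8 of 78 low-Ptgs2 cells in Ptger4-ON (7.14% and 10.3%), and in 6 of 87 and 16 of 134 in Ptger4-OFF (6.90% and 11.9%), with overlapping intervals. Mki67 went to log2 ratios of 0.42 and 0.09 when the Ptgs2 level was set at 0.02%.

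**Figure D4:**
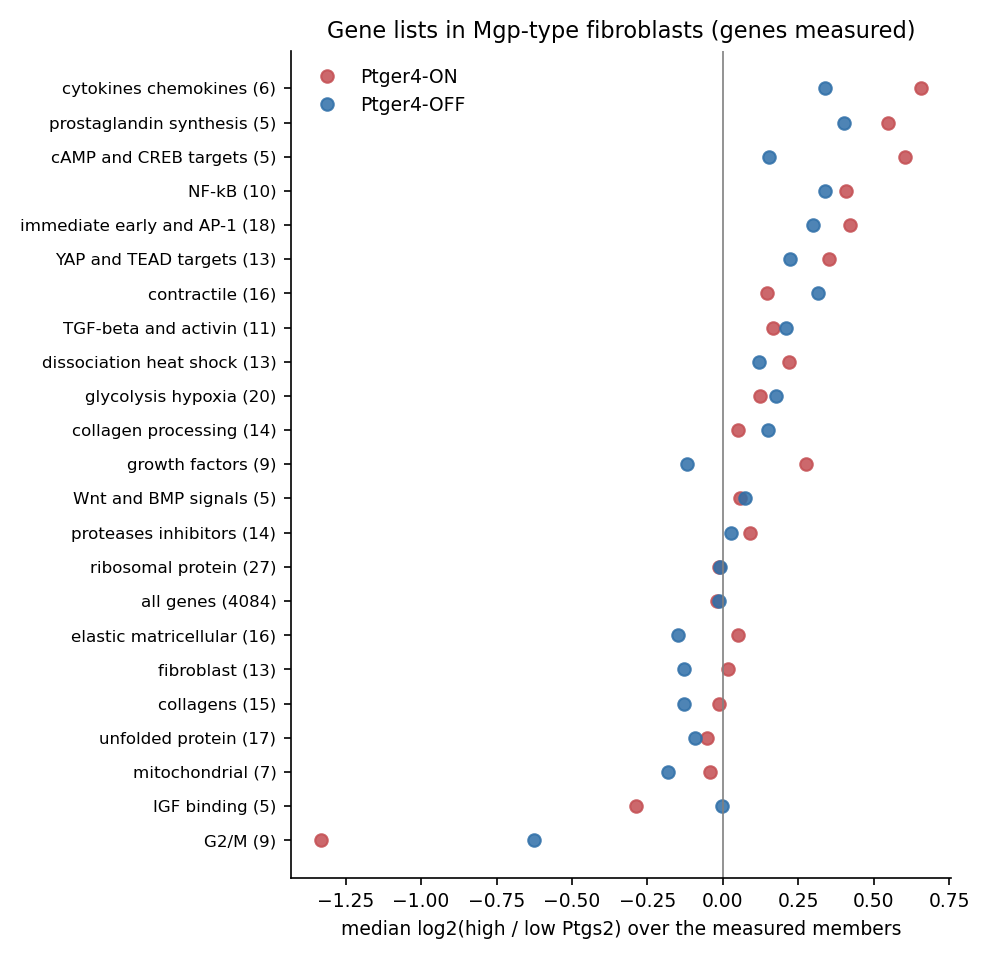
Median log2 ratio of members over low-Ptgs2 cells (x axis) over the measured genes of each list with at least 5 of them (y axis, number of genes in brackets). Red is Ptger4-ON and blue Ptger4-OFF. The immediate early list reads 0.42 and 0.30, the G2/M list −1.33 and −0.63, and all 4084 genes −0.02 and −0.01.

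Grem1-type fibroblasts, which were no part of the choice of these genes, were divided at the same Ptgs2 level into 17 and 39 cells in Ptger4-ON and 28 and 44 in Ptger4-OFF. Of the 15 genes higher with Ptgs2 in Mgp-type cells, 14 were higher in the Ptgs2-high Grem1-type cells of Ptger4-ON and 13 in those of Ptger4-OFF by the log2 ratio, with medians of 0.63 and 0.44. Among all genes 49.7% and 50.7% went that way, with medians of −0.01 and 0.01. Phlda1 had ratios of 1.54 and 1.87, Ereg 3.59 and 2.69, Errfi1 1.28 and 1.45 and Ier3 1.88 and 1.26. In Ptger4-ON 1 of the 14 was even and counts as higher only through the 0.5 added to each count. Ctgf read 1.09 and 2.6. Epithelial markers moved with this division: the 10 summed to 137 CPM in the Ptgs2-high and 1150 in the other Grem1-type cells of Ptger4-ON, where 1 cell held 90.5% of the latter, and to 241 and 541 in Ptger4-OFF. Without mixed barcodes they summed to 137 and 127 CPM and to 241 and 201, and 13 and 12 of the 15 genes were higher, with medians of 0.61 and 0.54. Of the 15 lower genes, 8 and 7 were lower there, against 50.3% and 49.3% of all genes, and Igfbp4 went the other way, at 8.52 and 2.19. Cells of both types came from the same libraries, so these ratios share their preparation with those of the Mgp-type cells.

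Likeness to Ptgs2 from cell to cell was measured by Spearman's rho over thinned Mgp-type cells, 162 in Ptger4-ON and 221 in Ptger4-OFF, for 1452 genes seen in at least 20% of cells. The values are small and are a description, and the part that sparse counts had in their size was not tested. The highest rho was 0.303 in Ptger4-ON and 0.269 in Ptger4-OFF, and 95% of genes were below 0.135 and 0.126. By the mean of both libraries, the 10 genes most like Ptgs2 included Fn1, Phlda1, Cyr61, Srm, Malat1, Map2k1, Zyx, Fbln2 and Thbs1. Fn1 had 0.303 and 0.177, Cyr61 0.219 and 0.198 and Phlda1 0.220 and 0.189. Srm, spermidine synthase, had 0.215 and 0.228 but nearly equal levels in members and low-Ptgs2 cells, with ratios of 1.01 and 1.13. Malat1 differed by library over the 4 Ptgs2 classes. It read 8042, 14816, 13646 and 17529 CPM in Ptger4-ON but 10985, 10321, 11766 and 10936 in Ptger4-OFF.

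Of the other genes of prostaglandin metabolism, those around the cyclooxygenase step were counted in the members. Before the cyclooxygenase step, Pla2g4a, the cytosolic phospholipase A2 that frees arachidonic acid, was at 294 CPM in members of Ptger4-ON and 272 in Ptger4-OFF, with ratios over low-Ptgs2 cells of 1.47 (1.16 to 1.86) and 1.33 (1.06 to 1.67). Ptgs1, the constitutive cyclooxygenase, was at only 22.2 and 22.6 CPM, against 153 and 126 in Grem1-type cells. After it, Ptges, the inducible prostaglandin E synthase, was at 66.5 and 84.9 CPM, with ratios of 2.01 (1.15 to 3.63) and 1.32 (0.866 to 2.01). The first of these turned to 0.863 when cells were thinned before the choice. Ptgis, prostacyclin synthase, was at 108 and 111 CPM, above low-Ptgs2 cells in Ptger4-ON (1.72) and below them in Ptger4-OFF (0.841). Ptges3, a co-chaperone also described as a prostaglandin E synthase, was at 143 and 136 CPM. Of the 5 measured genes of synthesis besides Ptgs2, 3 were above 1 in both libraries, against 25.2% of all genes, and none reached 1.5-fold in both. Cbr1, a further gene of that list, had ratios of 1.14 and 1.53. In Ptger4-ON its ratio fell to 0.665 when cells were thinned before the choice. In Ptger4-OFF its log2 ratio was −0.041 at a Ptgs2 level of 0.1%. The synthases Hpgds, Ptgds and Tbxas1 had no UMI in the members.

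The target of the drug was not detected in these cells. Ptger4 had 0 UMIs in the members of both libraries, which allows up to 4.43 CPM in Ptger4-ON and 5.66 in Ptger4-OFF (3 counts of the class), and stood at 27.5 and 29.1 CPM in epithelial cells. Ptger3, another EP receptor, had 5 and 6 UMIs in the members, and Ptger1 and Ptger2 had 1 UMI each in Ptger4-ON and 0 in Ptger4-OFF. Hpgd, which breaks prostaglandins down, had 1 UMI in the members of Ptger4-ON and 0 in Ptger4-OFF, against 27.3 and 34.3 CPM in epithelial cells.

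Between the treatments, the members of Ptger4-OFF were set against those of Ptger4-ON. Of 4137 genes with at least 50 UMIs over both, 34 (0.822%) were at least 2-fold higher in Ptger4-OFF and 45 (1.09%) at least 2-fold higher in Ptger4-ON, while 53.2% of genes had a ratio above 1. The median log2 ratio of all genes was 0.03. Ptgs2 itself stood at 1382 CPM in Ptger4-ON and 1230 in Ptger4-OFF, a ratio of 0.890 (0.804 to 0.985), and the choice used these values. Among low-Ptgs2 cells it was 1.05.

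Il33 (chr19:29925114-29960718, plus strand), the gene of an alarmin cytokine of the IL-1 family, had the highest CPM in the Ptger4-OFF members among the 15 named genes with the largest OFF over ON ratios. It was at 204 CPM in members of Ptger4-ON and at 507 in Ptger4-OFF, a ratio of 2.49 (2.02 to 3.08), and was seen in 29 of 84 and 42 of 87 members. The low-Ptgs2 cells showed a similar ratio of 2.90 (2.34 to 3.63), at 181 and 527 CPM. Cxcl1 was at 130 and 292 CPM (2.25, 1.72 to 2.96), with 2.27 in low-Ptgs2 cells, but in few cells, 18 and 29, and its log2 ratio dropped from 1.17 to 0.26 when cells were thinned before the choice. Irgm1 and Trim30a, which interferons induce, were at 42.9 and 134 CPM (3.13, 2 to 4.99) and at 51.7 and 121 (2.33, 1.52 to 3.63). All 3 measured genes of the interferon list were higher in Ptger4-OFF, none by 2-fold. Of these, Ifitm3, an antiviral membrane protein, was at 1067 and 1715 CPM (1.61, 1.46 to 1.77) and Bst2, tetherin, at 281 and 432 (1.54, 1.26 to 1.88), and Ifitm3 read 1.54 in low-Ptgs2 cells.

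The other named genes higher in Ptger4-OFF had roles in lipid metabolism, in the cytoskeleton and elsewhere. Sc5d, a sterol desaturase of cholesterol synthesis, was at 50.2 and 132 CPM (2.63, 1.72 to 4.08), Scp2, sterol carrier protein 2, at 56.1 and 128 (2.28), Eci2, an enoyl-CoA isomerase of fatty acid oxidation, at 50.2 and 109 (2.18) and Acadsb, an acyl-CoA dehydrogenase, at 48.8 and 106 (2.17). Myl9, a myosin regulatory light chain, was at 152 and 326 CPM (2.14, 1.67 to 2.76) against 1.11 in low-Ptgs2 cells, and Cav1, caveolin-1, at 47.3 and 102 (2.15). Cth, which makes cysteine, was at 87.2 and 208 CPM (2.38), Mrps24, a mitochondrial ribosomal protein, at 93.1 and 208 (2.23), Pafah1b3 at 54.7 and 117 (2.14), Rap2a at 50.2 and 102 (2.03) and Lgals3, galectin-3, at 199 and 394 (1.98). In epithelial cells Lgals3 was at 577 and 417 CPM, and the summed epithelial markers of the members were also higher in Ptger4-OFF, 366 against 194 CPM. With mixed barcodes left out, the log2 ratio of Lgals3 was 1.00 against 0.98 with them.

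Mmp2 and Mmp3, the genes of gelatinase A and stromelysin-1, were higher in Ptger4-ON. Mmp2 (chr8:92827291-92853420, plus strand) was at 251 CPM in Ptger4-ON and 84.9 in Ptger4-OFF, 2.96-fold higher in the former (2.12 to 4.21). In low-Ptgs2 cells it was at 208 and 273 CPM, a ratio of OFF over ON of 1.32 (1.05 to 1.66), the other way. Mmp3 was at 165 and 39.6 CPM (4.18, 2.6 to 7.01), of which 30.4% came from 1 cell in Ptger4-ON, and its log2 ratio moved from −2.04 to −0.69 with cells thinned before the choice. Spp1 was at 1778 and 749 CPM (2.37, 2.12 to 2.67), and without the highest cell 2.18. In low-Ptgs2 cells Spp1 was at 1408 and 1645 CPM, again the other way.

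Several secreted factors were higher in members of Ptger4-ON. Inhba, which encodes the activin A subunit, was at 408 and 194 CPM (2.10, 1.67 to 2.66), and in low-Ptgs2 cells at 506 and 192 (2.64). Ctgf was at 526 and 206 CPM (2.56, 2.06 to 3.20), against 1.82 in low-Ptgs2 cells. Lif was at 177 and 81.1 CPM (2.19, 1.53 to 3.17), against 1.12 in low-Ptgs2 cells. Pgf, placental growth factor, was at 105 and 17.0 CPM (6.18), but 80.3% of its Ptger4-ON UMIs came from 1 cell, and without the highest cells the ratio was 1.78. Cryab, the small heat-shock protein alpha-B-crystallin, was likewise set by 1 cell with 65.2% of the UMIs, and its ratio went from 2.86 to 1.15 without it. Of 12 measured genes of the TGF-beta and activin list, 2 were at least 2-fold higher in Ptger4-ON (Ctgf and Inhba) and none in Ptger4-OFF, and of 10 growth factors 2 were (Pgf and Mdk).

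The remaining named genes higher in Ptger4-ON were Gpx3, a secreted glutathione peroxidase (106 and 41.5 CPM, 2.56-fold), Hk2, a hexokinase (145 and 64.1, 2.26-fold), Lars2, mitochondrial leucyl-tRNA synthetase (199 and 77.3, 2.58-fold), Cebpz (179 and 64.1, 2.79-fold), Zswim6 (132 and 52.8, 2.49-fold), the nuclear RNA Neat1 (100 and 45.3, 2.22-fold) and the ribosomal protein gene Rps28 (465 and 213, 2.18-fold). In low-Ptgs2 cells 6 of these 7 were higher in Ptger4-ON too, from 1.30-fold (Zswim6) to 1.95-fold (Lars2), while Gpx3 went the other way, at 68.0 CPM in Ptger4-ON and 76.7 in Ptger4-OFF. Of 27 genes of ribosomal proteins, 20 were higher in Ptger4-ON and 1 by 2-fold. Of 15 collagens, 11 were higher in Ptger4-ON and none by 2-fold. Among all 4137 genes, 1935 were higher in Ptger4-ON. The lean of these 2 lists was not particular to the members. Their median log2 ratios of OFF over ON were −0.22 (ribosomal) and −0.15 (collagens) in members, and −0.23 and −0.22 in low-Ptgs2 cells. Col1a1 was at 3041 and 2109 CPM (OFF over ON 0.694, 0.644 to 0.746), while Col3a1 was at 4514 and 4697 (1.04, 0.987 to 1.10). Tagln, the actin-binding transgelin, was at 715 and 368 CPM (1.94-fold higher in Ptger4-ON). Of 16 contractile genes 9 were higher in Ptger4-OFF, near the 53.2% of all genes. Their median log2 ratio of OFF over ON was 0.06, against 0.03 for all genes.

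**Figure D5:**
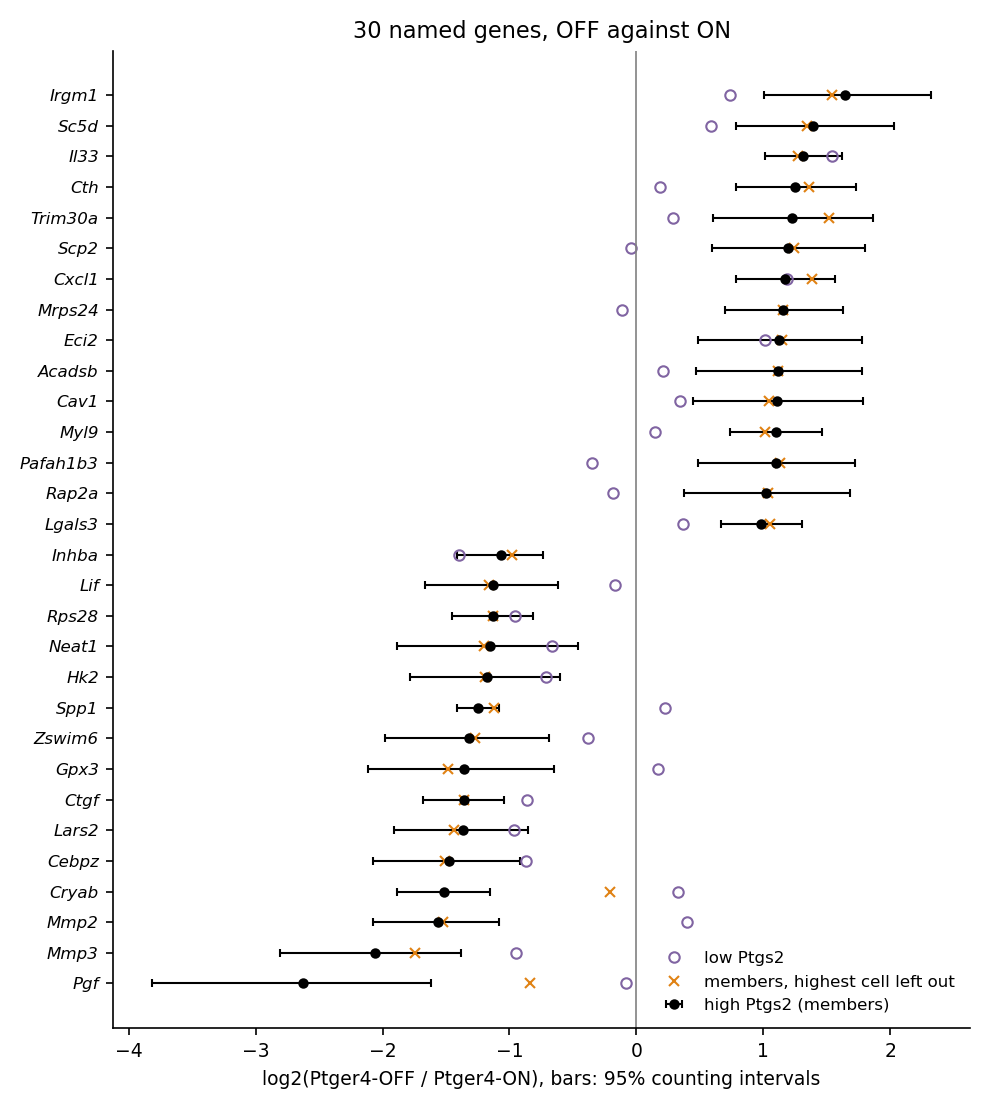
Log2 ratio of Ptger4-OFF over Ptger4-ON (x axis) for the 30 named genes (y axis) in the members (black, with 95% counting intervals), in the members without the highest cell of each library (orange crosses) and in low-Ptgs2 cells (open circles). Pgf and Cryab move toward 0 without 1 cell, Il33 and Inhba lie on the same side in both classes, and Mmp2 and Spp1 lie on opposite sides of 0.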

How the data were processed

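Per the labels, 2 Drop-seq libraries of mouse fibroblast and crypt co-cultures were deposited, 1 per condition, each a pool of 6 cultures. The deposited tables hold unnormalized counts, whole numbers for each gene and barcode, and are read as UMIs because the protocol is Drop-seq. The submitters' processing notes name STAR 2.6 and mm10; how reads were counted and barcodes picked is not stated there. The totals were 7408303 counts in 908 barcodes (Ptger4-ON, median 4366) and 9490205 in 1599 (Ptger4-OFF, median 4161).

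Barcodes entered with 300 genes, 2000 UMIs and no more than 20% mitochondrial UMIs (659 and 1240). Fibroblasts had more UMIs of Col1a1, Col1a2, Col3a1, Sparc and Dcn than of Epcam, Krt8, Krt18, Krt19 and Cldn7. CPM are the summed UMIs of a gene over all UMIs of the class in that library. Ratios have exact conditional binomial intervals, CPM exact Poisson intervals and shares exact Clopper-Pearson intervals, all at 95% and for counting error only, with 0.5 added to counts on the log2 scale. Genes needed 50 UMIs. The call limits were 2-fold between libraries and 1.5-fold in both libraries between Ptgs2 classes. Doublets were not removed: Scrublet (scanpy 1.11.5) called 5 of 882 and 4 of 1564 barcodes, a low rate that says little, and none was a member. No p-values were computed. The ratio script was tested on simulated data. Coordinates come from the GENCODE vM21 annotation. The software was R 4.3.3 with edgeR 4.0.16 (TMM factors only, an alternative) and pandas 2.3.3, scipy 1.17.1 and numpy 2.4.6 under Python 3.11.15.

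The members, the 36 gene lists and the rules were chosen with earlier results of these data known. Named genes were the 15 largest and 15 smallest ratios of each comparison among genes with proper symbols, at least 50 CPM (Ptgs2 classes) or 100 CPM (libraries) where higher and at least 0.5 of the epithelial CPM, up to 4 genes of each list, the genes of the choice and of prostaglandin metabolism, and the 10 most like Ptgs2. Other list members are named where a count was 5 or fewer or as examples, chosen after their values were seen. Results for 2 named genes are not reported here. The alternatives changed the Ptgs2 level, UMI and mitochondrial limits, thinning, mixed barcodes, doublets, scaling, gene filter and pseudocount. Left out after seeing the data were barcodes 1 base apart from a larger one (58 and 17, none a member), barcodes ending in N (8 and 7 members) and the highest cell of each gene. The sums of the marker and mitosis lists and the division of Grem1-type cells without mixed barcodes were likewise added after seeing the data.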

Additional observations from a re-analysis of the deposited data

Results flagged for a closer look

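Mmp2 and Spp1 moved in opposite directions in the 2 classes of Mgp-type fibroblasts. In the members the log2 ratio of Ptger4-OFF over Ptger4-ON was −1.55 for Mmp2 and −1.25 for Spp1, while in low-Ptgs2 cells the ratios were 1.32 (1.05 to 1.66) and 1.17 (1.07 to 1.28). The intervals cover counting error only, there is 1 library per condition, and the difference between the classes was not tested. Mmp2 was seen in 28 of 84 members of Ptger4-ON and 20 of 87 of Ptger4-OFF, and the highest cell held 16.5% and 13.3% of its UMIs. For Spp1 the highest cell held 21.5% and 12.6%. Over the 4 Ptgs2 classes Spp1 read 726, 1742, 2826 and 1088 CPM in Ptger4-ON and 1439, 1778.5, 842 and 659 in Ptger4-OFF. Its contrast between the libraries thus did not follow the Ptgs2 level evenly.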

How the results depend on the processing

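Of the shares and counts, 17 moved by more than the counting interval or 1.5 times under an alternative and 69 did not. The share of members was 71.0% in Ptger4-ON and 63.3% in Ptger4-OFF at a Ptgs2 level of 0.02%, 32.7% and 19.9% at 0.1%, and 61.9% and 53.4% with cells thinned first. Genes higher with Ptgs2 numbered 78 with a filter of 20 UMIs and 9 with 100, against 26, and genes lower 124 and 4, against 30, and 17 at the 0.02% level. Genes 2-fold higher in Ptger4-OFF numbered 191 with 20 UMIs, 8 with 100 and 59 with each cell weighted equally, against 34, and those higher in Ptger4-ON 207, 16 and 81, against 45. The filters change how many genes are tested, and the cause of the other moves was not tested. Of the list medians, 156 moved and 865 did not, with 0.1 on the log2 scale as the limit. Moved and unmoved medians numbered 36 and 33 at the 0.02% level and 26 and 39 at 0.1%. They numbered 30 and 38 with thinning first and 25 and 44 with each cell weighted equally. Of the values of named genes, 279 were counted as moved and 5681 as not moved. The ratio of Cbr1 in Ptger4-ON, which fell from 1.14 to 0.665 with thinning first, was not among those counted as reversed. A further 25 were counted as changed in sign, all in members over low-Ptgs2 cells. At 0.02% the log2 ratios became 0.38 for Cenpe, 1.62 for Chodl, −0.30 for Cxcl1, 0.19 for Lonp2, 0.091 for Mki67, 0.041 for Mmp3 and 0.067 for Serf1 in Ptger4-OFF, and 0.72 for Epcam, 0.038 for Id3, 0.0021 for Lonp2, 0.42 for Mki67, 0.11 for Rrp36 and 0.029 for Serpine2 in Ptger4-ON. At 0.1% they became −0.041 for Cbr1 in Ptger4-OFF, and 0.31 for Chodl and −0.074 for Ptges in Ptger4-ON. With thinning first they became 1.60 for Chodl and 0.48 for Mmp3 in Ptger4-OFF, and 0.024 for Acap2, 4.54 for Chodl, −0.41 for Fos and −0.21 for Ptges in Ptger4-ON. In Ptger4-ON, Chodl became 0.25 without its highest cell and Epcam 0.32 without mixed barcodes and 0.50 without Scrublet doublets. No paired analysis was possible because each condition has 1 library and no test was made.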
